A study of Mus musculus with 12 samples.

Results

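The design crossed genotype with medium, and the question followed here was which genes answered the loss of glutamine differently in a line with p53 and a line without it. For each gene, the response of the wild-type line (glutamine-free minus complete medium) was set against the same response of the p53-null line, and the difference of the 2 responses was tested. Of 19439 gene entries in the deposited table, 11461 reached 1 RPKM in 3 or more of the 12 samples and were tested. RPKM are read counts scaled to gene length and to library size, and differences are given on the log2(RPKM + 1) scale. Of the tested genes, 454 reached 1 RPKM in exactly 3 samples, and another 95 genes fell 1 sample short and were not tested.

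The 4 groups were 3T3 mouse embryonic fibroblasts (MEFs), fibroblasts that became immortal through repeated passage, in 3 libraries each. The first pair of groups carried wild-type p53 (WT) and the second was p53 -/- (p53-null), with 1 line for each genotype. Each line spent 18 h in DMEM, a standard culture medium, with 25 mM glucose and either 2 mM glutamine (complete) or none (glutamine-free). With 1 line per genotype, genotype and line cannot be told apart. Whether the 3 libraries of a group stem from separate cultures is not in the labels. The p-values therefore reflect the spread between the libraries at hand, which may be technical. Adjusted p-values are Benjamini and Hochberg values over the 11461 genes from limma, a linear model with a pooled estimate of the spread, and errors are SD over n = 3 libraries or the standard error (SE) of a difference.

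Glutamine is the main nitrogen donor of cultured cells and feeds the tricarboxylic acid cycle as well as the making of nucleotides and of other amino acids. When amino acids run short, the kinase GCN2 phosphorylates the initiation factor eIF2α and translation of the transcription factor ATF4 rises, which induces genes of amino acid uptake and synthesis and tRNA charging. p53, the product of Trp53, is a transcription factor that halts the cell cycle or triggers cell death under stress, and it has also been studied as a regulator of metabolism.

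Libraries of a group correlated at r = 0.998 to 0.999 across genes (12 pairs, as a description over genes, which are no replicates). Their depth, estimated from the steps between low values, was about 37.8 to 46.8 M reads. This is a rough figure, since only 51.7 to 56.6% of the low values used were whole reads at that depth. Read counts were not recovered from the RPKM. Trp53 itself was 58.5 ± 0.585 and 112 ± 2.22 RPKM in WT complete and glutamine-free medium and 28.8 ± 0.873 and 34.6 ± 0.614 RPKM in the p53-null line. Transcript of Trp53 was therefore lower, but not absent, in the line labelled p53 -/-, and one value for the whole gene cannot tell which exons it stems from. Summed RPKM of 12 fibroblast markers was 4125 to 4145 in WT complete, 1028 to 1036 in WT glutamine-free, 2503 to 2540 in p53-null complete and 1432 to 1458 in p53-null glutamine-free libraries. Thy1, Lum and Fap, 3 of those markers, stayed under 1 RPKM in every group. The 8 epithelial markers found in the table summed to 77.3 to 84.8 RPKM in p53-null and at most 0.252 RPKM in WT libraries. This came from the keratin genes Krt18 and Krt19, while Epcam and Cdh1, which define epithelial cells, were under 0.1 RPKM in each group mean. In bulk RNA, fewer cells of a type and less RNA per cell cannot be told apart, and this holds for each difference below.

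The p53-null line answered glutamine withdrawal with smaller changes than the WT line at most genes. The SD of the response across the 11461 genes was 0.90 on the log2 scale in WT and 0.45 in the p53-null line, and the median size of a response was 0.51 and 0.27. The 2 responses share no library, and across genes they correlated at r = 0.571 (Spearman rho = 0.586), with a slope of 0.286 for the p53-null response on the WT response. The difference of the responses passed an adjusted p of 0.05 in 9727 genes, 84.9% of those tested, with 4404 higher (38.4%) and 5323 lower (46.4%). With so small a spread between libraries, the size of a difference says more than its p, and a 2-fold difference (at least 1 on the log2 scale) was asked in addition. It was met by 1783 genes (15.6%), 639 with a higher difference (5.58%) and 1144 with a lower one (9.98%). In 1649 of the 1783 the WT line moved more, and in 134 the p53-null line did. Over all tested genes the WT line moved more in 8190 of 11461. Asking for a large difference favours genes of the line with the larger responses, so the 1649 are no separate result. A called 2-fold response was found in 22.6% of tested genes in WT (9.75% up, 12.9% down) and in 3.31% in the p53-null line (1.27% up, 2.03% down). The split into higher and lower leaned on the scaling: with libraries shifted to one median it was 804 against 949. That scaling moved the median difference of all tested genes from -0.06 to 0.04.

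**Figure D1:**
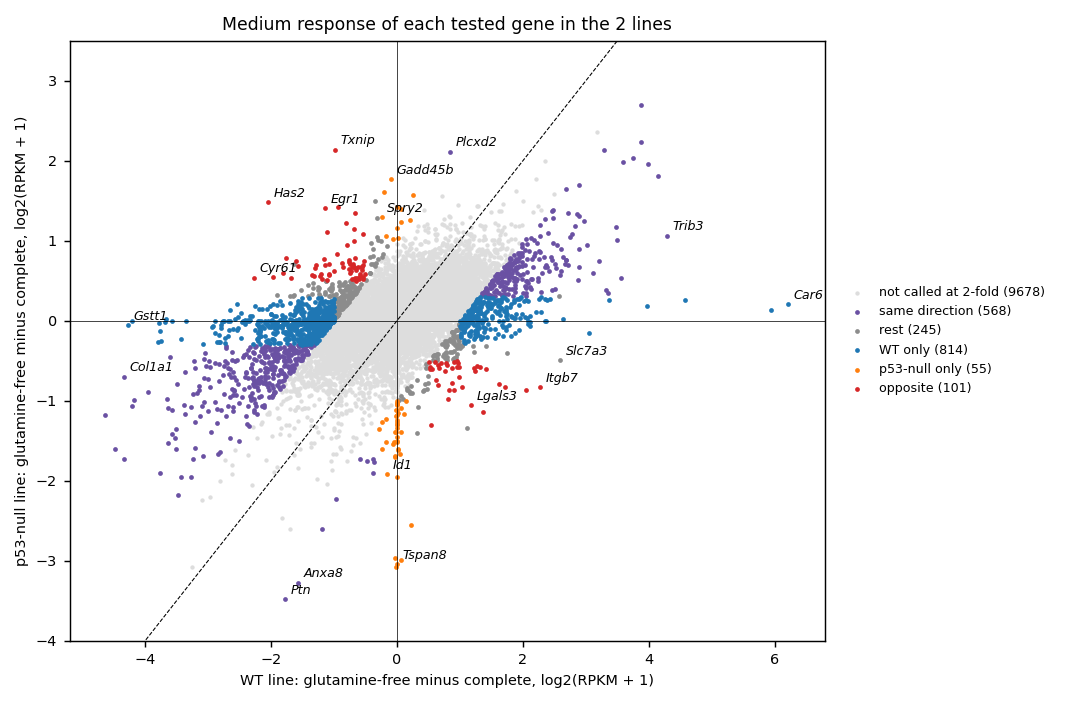
Response of each of the 11461 tested genes to glutamine withdrawal in the WT line (horizontal) and the p53-null line (vertical), both as glutamine-free minus complete medium in log2(RPKM + 1). The dashed line marks equal responses. Coloured points are the 1783 genes with a 2-fold difference, most of which lie nearer to the horizontal axis than to the vertical one. WT moved more in 1649 of them, and in 8190 of all 11461 tested genes.

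The 1783 genes were sorted by what each line did. In 101 genes both responses were called, went in opposite directions and reached 0.5 on the log2 scale. In 814 genes the WT line alone responded, meaning a called response of at least 1 in WT and one smaller than 0.3 in size in the p53-null line. In 55 genes the p53-null line alone responded by the same limits. Alone is thus a limit of size, and a smaller response could be present in the other line. Another 568 moved the same way in both lines by unequal amounts, 558 of them more in WT, and 245 (2.14% of those tested) met none of these limits. Of these 245 genes, 244 had responses of opposite sign, and both responses were called in 224.

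Slc7a3, the arginine transporter gene named in the title of the study, is among those 245 genes (chromosome X, 101079210 to 101086020, minus strand, mm10). It was 0.20, 0.251 and 0.334 RPKM in the WT complete, 6.19, 6.70 and 7.01 in the WT glutamine-free, 0.904, 1.17 and 1.10 in the p53-null complete and 0.432, 0.541 and 0.402 in the p53-null glutamine-free libraries. The media did not overlap in either line, and the 3 WT glutamine-free libraries stood above all others. The difference of the responses was 3.09 ± 0.09 (SE, adjusted p = 2.2e-12), and 5.29 with a pseudocount of 0.1 in place of 1. Its fall in the p53-null line, -0.498, lay just short of the limit of 0.5 for opposite directions. With a pseudocount of 0.1 or 0.5, with libraries rescaled to one sum or shifted to one median, it met that limit, and under quantile normalization it did not. The genes whose log2 values followed Slc7a3 most closely over the 12 libraries were Esd (r = 0.995), Dcun1d2 (r = 0.994), Exosc5 (r = 0.994), Dnph1 (r = 0.993) and Agk (r = 0.993), as a description over samples that fall into 4 groups. Esd, which encodes an esterase, was 68.5 ± 2.00 and 155 ± 2.65 RPKM in WT complete and glutamine-free medium and 88.2 ± 1.0 and 77.1 ± 1.21 in the p53-null line.

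Opposite responses came in 2 kinds. In 37 genes (0.323% of those tested) the transcript rose in WT and fell in the p53-null line, and in 64 (0.558%) it fell in WT and rose in the p53-null line. These counts depended on the scaling, at 61 and 40 with libraries shifted to one median and 49 and 41 under quantile normalization. Of the 64 genes that fell in WT, 40 kept their class under median centring and 37 under quantile normalization, and of the 37 that rose, 36 and 32 did. Asking for a full 2-fold response in each line left 2 and 3 genes.

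Among genes that rose in WT and fell in the p53-null line, Itgb7, the β7 subunit of integrins best known from lymphocytes, had the largest difference (chromosome 15, 102215995 to 102231944, minus strand). It was 2.30, 1.74 and 1.77 RPKM in WT complete libraries and 12.8, 13.3 and 13.3 in WT glutamine-free libraries. In the p53-null line it was 14.1, 14.0 and 13.8 RPKM in complete and 7.24, 7.38 and 7.56 in glutamine-free medium. The media did not overlap in either line, and the order of the lines turned around with the medium, the p53-null line being the higher in complete and the lower in glutamine-free medium (difference of responses 3.10 ± 0.08, adjusted p = 1e-12). The summed RPKM of the 9 blood cell markers found was 4.46 to 5.12 in WT complete, 16.7 to 18.8 in WT glutamine-free, 7.52 to 8.37 in p53-null complete and 3.21 to 3.92 in p53-null glutamine-free libraries. The sum mixes different genes, and no marker was in an opposite class. Of the 3 tested, 1 rose in both lines, further in WT, and 1 fell in the p53-null line alone. The other 6 found stayed under 1 RPKM in every group. The defining marker Ptprc (CD45) was at most 0.00261 RPKM in the group means, and the part of these markers in the result was not tested.

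Lgals3, which encodes the sugar-binding protein galectin-3, was the most abundant of the genes named by the rule in this class (chromosome 14, 47367751 to 47386160, plus strand). WT libraries held 276, 272 and 272 RPKM in complete and 605, 623 and 626 in glutamine-free medium, and p53-null libraries 123, 125 and 131 against 60.3, 60.4 and 60.0. Each WT glutamine-free library was above each of the others, and each p53-null glutamine-free library below them. The response was 1.17 in WT and -1.06 in the p53-null line, a difference of 2.23 ± 0.03 (adjusted p = 4.5e-15). Kitl, the ligand of the receptor Kit, started from like levels, 2.29 ± 0.0652 RPKM in WT and 2.76 ± 0.0521 in p53-null complete medium. It ended at 7.78 ± 0.167 and 1.48 ± 0.0547 RPKM (difference 2.02 ± 0.04, adjusted p = 1.7e-13). Tmem150a, which encodes a membrane protein, went from 2.10 ± 0.0233 to 8.53 ± 0.521 RPKM in WT and from 16.9 ± 0.773 to 9.30 ± 0.259 in the p53-null line, so that the lines ended at like levels. Ugt1a6a, which encodes an enzyme that couples foreign compounds to glucuronic acid, went from 4.48 ± 0.179 to 17.3 ± 3.46 RPKM in WT and from 2.50 ± 0.318 to 0.973 ± 0.296 in the p53-null line. It shares exons with Ugt1a6b, and reads could be split between them: the WT glutamine-free library with the highest Ugt1a6a, 21.3 RPKM, had the lowest Ugt1a6b of its group, 12.7 RPKM.

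Other genes of this class were picked after their values were seen. Bax, which encodes a pore-forming protein of cell death and is a standard p53 target, was 22.4 ± 0.587 and 41.8 ± 1.2 RPKM in WT complete and glutamine-free medium and 52.9 ± 0.615 and 34.8 ± 0.443 in the p53-null line (difference 1.46 ± 0.03, adjusted p = 3e-13). Cdk4, the kinase of the G1 phase, was 169.8 and 269.9 RPKM in WT and 275 and 182 in the p53-null line, so that each line ended near where the other began. The splicing factor genes Srsf6 (difference 1.84 ± 0.03) and Srsf2 (1.39 ± 0.03) and the mitochondrial ribosome genes Mrpl54 (1.8 ± 0.07) and Mrps28 (1.70 ± 0.08) moved in the same directions. So did Timp3, an inhibitor of matrix-degrading enzymes, from 119 ± 0.396 to 284 ± 2.68 RPKM in WT and from 97.2 ± 0.454 to 62.7 ± 0.749 in the p53-null line. Ftl1, the light chain of the iron store ferritin, was 649 RPKM in WT with glutamine and 1210 without, against 1746 and 958 in the p53-null line, while the heavy chain gene Fth1 was 2682 and 2699 RPKM in WT and 609 and 388 in the p53-null line. Ftl1 has near-identical copies in the genome and 26.5% of its exon length lies under a gene on the other strand, as does 25.3% of Srsf2, in libraries made without strand information.

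Among genes that fell in WT and rose in the p53-null line, Has2, which makes the matrix sugar polymer hyaluronan, had the largest difference (chromosome 15, 56665627 to 56694539, minus strand). It was 3.92, 3.85 and 3.84 RPKM in WT complete libraries and 0.181, 0.181 and 0.178 in WT glutamine-free libraries. In the p53-null line it was 2.38, 2.17 and 2.06 in complete and 8.09, 7.78 and 7.87 in glutamine-free medium. No 2 groups overlapped, and the lines changed order with the medium (difference -3.52 ± 0.05, adjusted p = 7.2e-15). Txnip, whose product binds thioredoxin and holds back glucose uptake, fell in WT from 36.6, 36.7 and 36.2 to 17.3, 18.8 and 17.9 RPKM (chromosome 3, 96557957 to 96561883, plus strand). In the p53-null line it rose from 16.8, 17.5 and 16.4 to 77.5, 78.7 and 77.2 RPKM. The p53-null complete and WT glutamine-free libraries lay close together and overlapped, and the p53-null glutamine-free libraries stood above all others (difference -3.12 ± 0.04, adjusted p = 2.7e-15). Arrdc4, a relative of Txnip that is likewise induced by glucose, was chosen after its values were seen and belongs to the genes that responded in the p53-null line alone, with 0.363 and 0.375 RPKM in WT and 1.55 and 4.20 in the p53-null line. Arrdc3, another member of that family, was 25.4 and 14.9 RPKM in WT and 2.94 and 4.06 in the p53-null line (difference -1.09 ± 0.06, adjusted p = 2.3e-09).

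Cyr61 and Ctgf encode secreted matrix-associated proteins and are standard targets of the YAP and TEAD regulators. Cyr61 was 118, 116 and 117 RPKM in WT complete and 22.7, 23.8 and 23.7 in WT glutamine-free libraries, against 40.0, 41.0 and 41.4 and 57.5, 61.5 and 60.1 in the p53-null line. It was thus high in each WT complete library and lowest in each WT glutamine-free library, with the p53-null libraries between (difference -2.81 ± 0.03, adjusted p = 2.2e-15). Ctgf, chosen after its values were seen, was lower throughout in WT, at 2.98 ± 0.0875 and 0.612 ± 0.0359 RPKM, than in the p53-null line, at 23.7 ± 0.658 and 37.9 ± 0.348 (difference -1.96 ± 0.04, adjusted p = 1.1e-13). Ankrd1, a further standard target of YAP, did not follow them and responded in WT alone, upward, from 4.22 ± 0.188 to 12.7 ± 0.672 RPKM, at 34.2 ± 1.10 and 31.7 ± 0.522 in the p53-null line.

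Egr1, an immediate early transcription factor gene that growth factors induce through the ERK kinases (chromosome 18, 34859823 to 34864984, plus strand), was 7.01, 6.8 and 6.81 RPKM in WT complete and 2.67, 2.69 and 2.36 in WT glutamine-free libraries. The p53-null libraries held 2.91, 2.94 and 2.89 in complete and 9.59, 9.05 and 9.43 in glutamine-free medium. The highest group was p53-null without glutamine, and the next was WT with it (difference -2.55 ± 0.05, adjusted p = 1.2e-13). Dusp6, Etv4, Errfi1, Egfr, Il6st, Osmr and Mxd4 of this class were chosen after their values were seen or from the lists. Dusp6, whose product dephosphorylates ERK, was 7.02 ± 0.108 and 3.59 ± 0.238 RPKM in WT and 12.3 ± 0.353 and 29.98 ± 0.763 in the p53-null line. Etv4, a transcription factor gene, was 4.69 ± 0.161 and 0.871 ± 0.0815 in WT and 17.4 ± 0.496 and 29.7 ± 0.157 in the p53-null line. Errfi1, an inhibitor of the epidermal growth factor receptor, and the gene of that receptor, Egfr, had differences of -1.82 ± 0.03 and -1.63 ± 0.04. Il6st and Osmr encode receptor chains for signals of the interleukin-6 family. Il6st went from 169 to 76.0 RPKM in WT and from 19.6 to 32.2 in the p53-null line. Rras, a small GTPase gene, went from 40.6 ± 1.52 to 11.3 ± 0.0525 and from 8.70 ± 0.500 to 15.7 ± 0.388 RPKM, and Tmem171 from 1.39 ± 0.180 to 0.248 ± 0.0604 and from 2.35 ± 0.290 to 7.99 ± 0.506. Mxd4, which encodes a partner of MAX that opposes MYC, went from 22.3 ± 0.145 to 6.83 ± 0.357 and from 4.99 ± 0.180 to 8.65 ± 0.439 RPKM.

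**Figure D2:**
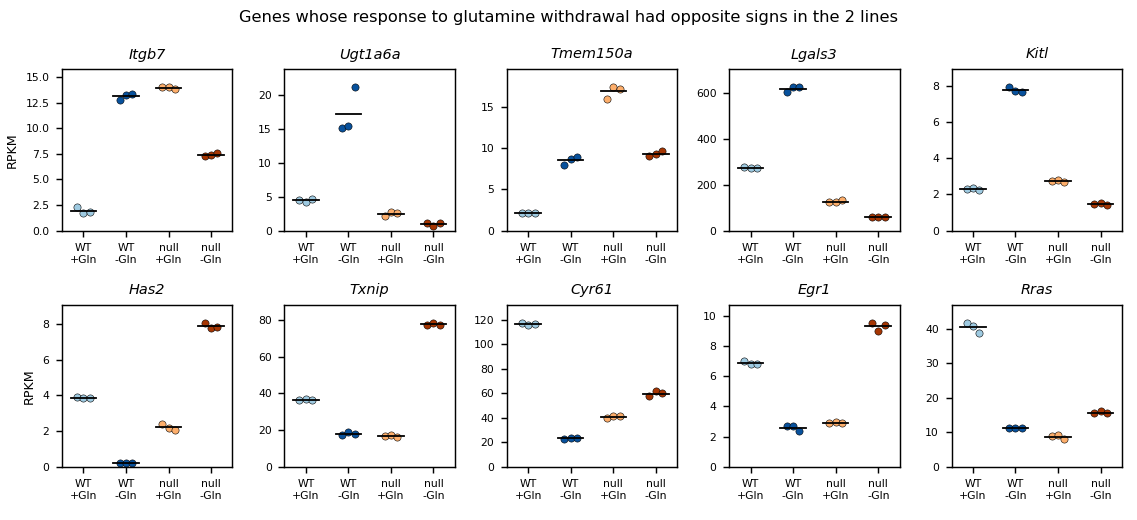
RPKM in each library of 10 genes with responses in opposite directions, the upper 5 rising in WT and falling in the p53-null line and the lower 5 the reverse, each the 5 largest differences under the rule for named genes; dots are libraries, bars are group means, Gln is glutamine and null the p53-null line. Has2 runs from 3.87 to 0.18 RPKM in WT and from 2.20 to 7.92 in the p53-null line.

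In the WT line alone, 240 genes rose (2.09% of those tested) and 574 fell (5.01%), a split of 330 against 445 with libraries shifted to one median. A line that hardly transcribes a gene cannot lower it further, which touches a part of the falls. Of the 240 genes that rose, 45 (18.8%) were under 1 RPKM in both p53-null groups, and of the 574 that fell, 192 (33.4%) were. At 5 RPKM or more in every group there were 127 rising and 167 falling genes. Among the 127, the p53-null level in complete medium lay between the 2 WT levels in 96, below both in 19 and above both in 12. Among the 167 it lay between them in 107, below in 36 and above in 24.

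The rising genes were led by Car6, which encodes a secreted carbonic anhydrase (chromosome 4, 150187015 to 150201332, minus strand). It was 0.223, 0.142 and 0.268 RPKM in WT complete and 89.1, 88.0 and 89.9 in WT glutamine-free libraries. In the p53-null line it was 8.95, 10.03 and 9.18 in complete and 11.7, 10.5 and 10.7 in glutamine-free medium. The p53-null libraries thus lay between the WT groups in either medium (difference 6.01 ± 0.07, adjusted p = 1.1e-15). Avil, the actin-binding protein advillin (chromosome 10, 127000709 to 127020994, plus strand), behaved alike, with 0.226, 0.144 and 0.113 against 70.3, 70.3 and 69.4 RPKM in WT and 8.95, 9.14 and 9.43 against 10.2, 10.2 and 10.1 in the p53-null line. Its difference was 5.80 ± 0.05 (adjusted p = 1e-16). Cdsn, a protein of skin cell junctions, went from 3.33 ± 0.109 to 102.7 RPKM in WT and from 51.4 ± 1.64 to 61.7 ± 1.18 in the p53-null line. Atf5, a transcription factor gene downstream of ATF4, went from 8.12 ± 0.317 to 93.1 ± 2.25 and from 65.3 ± 0.281 to 78.2 ± 1.08. With glutamine, the p53-null line already stood far above WT in both genes, nearer to the induced WT level in Atf5 and further below it in Cdsn. Angptl6, a secreted factor, went from 1.36 ± 0.107 to 35.9 ± 0.695 RPKM in WT against 7.04 ± 0.406 and 8.16 ± 0.374, and Cox6a2, a cytochrome oxidase subunit, from 0.113 ± 0.00282 to 8.18 ± 0.502 against 2.18 ± 0.485 and 1.83 ± 0.0954.

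Lonp1, Shmt2, Aldh1l2 and Hmox1 were picked from this class after their values were seen. Lonp1, the mitochondrial protease, was 49.9 ± 0.270 and 155 ± 0.994 RPKM in WT and 189.1 and 188.9 in the p53-null line, above both WT levels. Shmt2 and Aldh1l2, enzymes of mitochondrial folate metabolism, rose in WT from 56.8 to 155 RPKM and from 16.2 to 105 RPKM. In the p53-null line Shmt2 was 158 and 137 RPKM and Aldh1l2 46.9 and 47.6, well below the WT level without glutamine. In Hmox1, a heme-degrading enzyme gene that NRF2 induces, the lines lay closer together in complete medium, at 25.5 ± 0.521 RPKM in WT and 30.5 ± 0.793 in the p53-null line. It ended at 91.9 ± 3.32 and 26.7 ± 0.190 RPKM (difference 2.00 ± 0.04, adjusted p = 5.9e-14).

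The genes that fell in WT alone were led by Gstt1, a glutathione transferase gene (chromosome 10, 75783813 to 75798584, minus strand). It held 66.0, 67.6 and 67.7 RPKM in WT complete and 2.79, 2.22 and 2.55 in WT glutamine-free libraries, and at most 0.120 RPKM in any p53-null library (difference -4.22 ± 0.07, adjusted p = 3.3e-14). Steap4, a metal reductase gene, Galnt15, a glycosyltransferase gene, Nos2, the inducible nitric oxide synthase, and Fabp4, a fatty acid carrier that also marks adipocytes, were likewise under 0.1 RPKM in both p53-null means. For these 5 genes the p53-null line offered no level from which to fall. Ccdc80, which encodes a matrix protein, differed from them: it was 55.9, 55.4 and 56.2 RPKM in WT complete and 3.32, 3.53 and 3.47 in WT glutamine-free libraries, and 2.86 to 3.18 RPKM across the 6 p53-null libraries. It was high in WT complete medium only (difference -3.70 ± 0.04, adjusted p = 1.4e-15). The 7 adipocyte markers summed to 24.7 to 26.8 RPKM in WT complete, 3.63 to 4.22 in WT glutamine-free and 1.79 to 4.08 in p53-null libraries, and the 7 neural markers to 42.7 to 43.8, 21.6 to 21.7 and 4.63 to 4.96 RPKM. Of the 3 adipocyte markers tested, 2 were called as falling and 1 as rising in WT, with a median response of -0.37. Fabp4 is in this class, and the difference of the responses was called higher in the other 2. Of the 4 neural markers tested, 3 were called lower and 2 of these fell in WT alone. The part of both marker lists in the falls was not tested. Genes well expressed in both lines, picked after their values were seen, were Emp1, a membrane protein gene (148.8 and 25.9 RPKM in WT, 170.4 and 146 in the p53-null line), and Cav1, the caveolin of cell surface pits (125 and 18.0 against 97.8 and 80.1). Their differences were -2.26 ± 0.02 and -2.45 ± 0.02 (adjusted p = 6.8e-16 and 3.8e-16).

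**Figure D3:**
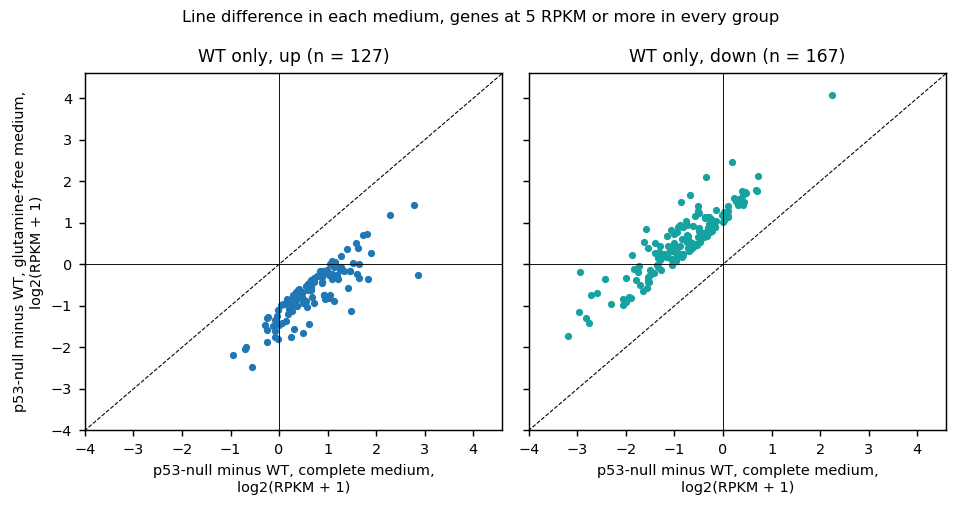
Difference between the lines (p53-null minus WT, log2(RPKM + 1)) in complete medium (horizontal) and glutamine-free medium (vertical) for the genes that responded in WT alone and had at least 5 RPKM in every group, 127 rising (left) and 167 falling (right). Points of rising genes lie mostly at higher p53-null levels in complete medium and lower ones in glutamine-free medium, which the panel of falling genes shows in reverse. The distance from the dashed line of equal values is the difference of the responses that defined these genes. That rule favours points on these sides of the axes, so the pattern is partly set by it. Of all 11461 tested genes, 6088 were higher in the p53-null line in complete medium and 5094 lower in glutamine-free medium.

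The p53-null line alone responded at far fewer genes, 12 upward (0.105%) and 43 downward (0.375%). The media did not overlap in WT in 6 of the 12 and 12 of the 43, against 10319 of all 11461 tested genes. Some of these genes may thus have moved in WT by less than the limit. Their shares are low because the class asks for a small WT response. Of the 43, 33 (76.7%) were under 1 RPKM in both WT groups, and 26 were under 0.1 RPKM, so that WT had no level from which to fall. The 3 largest differences, in Cxcl15, Tspan8 and Gsta1, were of this sort. The next was in Gm20594, a predicted gene outside the rule for named genes, which was expressed in both lines, at 53.4 and 52.1 RPKM in WT and 105 and 14.1 in the p53-null line. Cxcl15, a chemokine gene, was 8.38, 7.86 and 7.80 RPKM in p53-null complete and 0.0418, 0.0894 and 0.0623 in p53-null glutamine-free libraries, and at most 0.0359 in any WT library. Tspan8, a membrane protein gene often found in epithelia, was 29.2, 29.1 and 30.3 RPKM against 2.57, 2.69 and 2.86, and it was listed at 0 in 5 of the 6 WT libraries. Parm1 and Gsta1 were likewise near 0 in WT, Parm1 at 25.7 ± 0.395 and 7.24 ± 0.351 RPKM in the p53-null line. Gsta1, at 19.7 ± 3.16 and 1.62 ± 0.474, has near-identical copies whose reads may be shared. Beside these genes, the summed epithelial markers were 77.3 to 78.6 RPKM in p53-null complete and 82.6 to 84.8 in p53-null glutamine-free libraries, and thus did not fall as a list. Krt19 by itself fell, from 17.5 ± 0.404 to 7.92 ± 0.222.

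Id1, an inhibitor of differentiation factors and a standard target of bone morphogenetic proteins (chromosome 2, 152736251 to 152737410, plus strand), was expressed in both lines. It was 10.02, 8.69 and 9.40 RPKM in WT complete and 7.84, 8.61 and 8.30 in WT glutamine-free libraries, against 24.7, 25.7 and 25.9 and 6.23, 6.03 and 5.70 in the p53-null line. The p53-null line was the higher with glutamine and the lower without it (difference 1.76 ± 0.07, adjusted p = 3.6e-11). Amdhd2, which recycles an amino sugar of the hexosamine pathway, whose first enzyme uses glutamine, was 12.4, 12.01 and 11.7 against 11.98, 12.3 and 13.3 RPKM in WT and 26.9, 26.4 and 27.0 against 7.50, 7.62 and 8.08 in the p53-null line. The media overlapped in WT and were far apart in the p53-null line (difference 1.72 ± 0.05, adjusted p = 3.7e-12). Eps8, Cyp1b1 and Nqo1 were picked after their values were seen. Eps8, an actin regulator, was 20.1 RPKM in both WT groups and fell from 58.6 ± 0.194 to 24.2 ± 0.233 in the p53-null line. Cyp1b1, a cytochrome P450 gene, was 42.5 and 35.8 RPKM in WT and fell from 102 ± 0.866 to 41.8 ± 0.648. Nqo1, a quinone reductase and NRF2 target, was 31.2 and 33.9 RPKM in WT and fell from 4.95 ± 0.177 to 1.66 ± 0.153.

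Of the 12 genes that rose in the p53-null line alone, Gadd45b, a stress-response gene, had the largest difference (chromosome 10, 80930073 to 80932204, plus strand). It was 36.2, 36.7 and 36.3 RPKM in WT complete and 31.2, 35.0 and 36.0 in WT glutamine-free libraries. In the p53-null line it was 12.1, 11.6 and 12.7 in complete and 43.1, 44.4 and 43.8 in glutamine-free medium. The p53-null line thus started lower than WT and ended slightly higher (difference -1.86 ± 0.06, adjusted p = 1.1e-11). Spry2, an inhibitor of receptor tyrosine kinase signalling that those signals induce, started higher instead, at 10.1 ± 0.437 against 5.98 ± 0.374 RPKM, and ended at 26.3 ± 0.343 against 4.88 ± 0.163. Maff, a small transcription factor gene, rose from 3.64 ± 0.325 to 12.7 ± 0.396 RPKM against 2.22 ± 0.192 and 2.81 ± 0.10 in WT. The noncoding RNA Map2k3os, Zswim4 and Nemp1 completed the 6 largest, with differences of -1.33 ± 0.09, -1.24 ± 0.06 and -1.09 ± 0.04. Dusp5 (-1.17 ± 0.12) and Noct (-1.05 ± 0.04), chosen after their values were seen, were also among the 12.

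**Figure D4:**
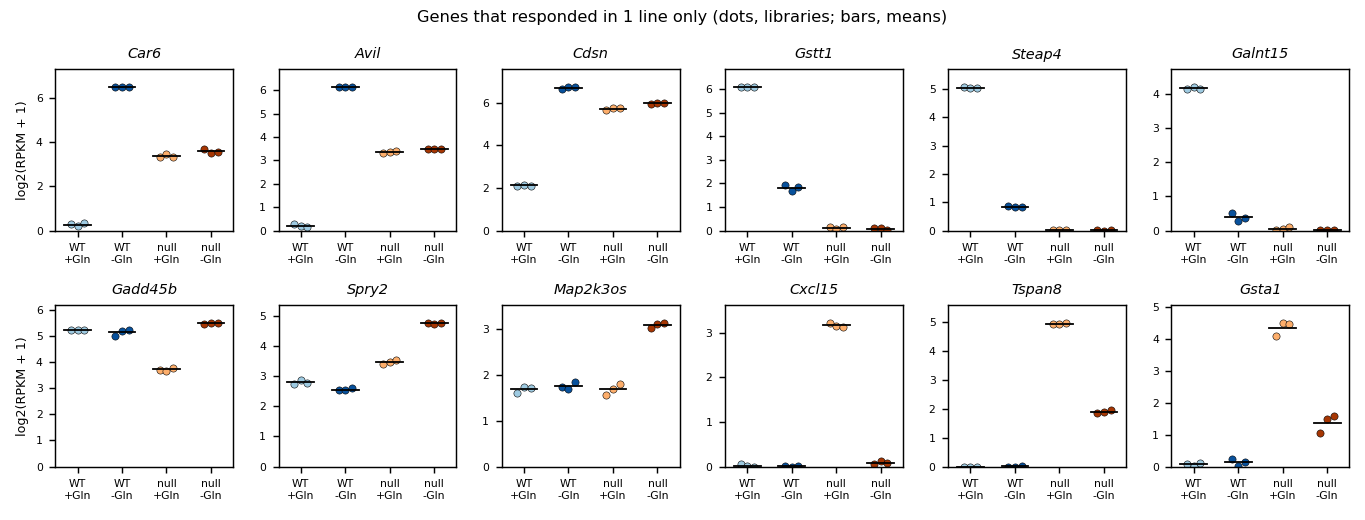
log2(RPKM + 1) in each library of genes that responded in 1 line, WT in the upper 6 panels and p53-null in the lower 6; dots are libraries and bars group means, Gln is glutamine and null the p53-null line. Car6, Avil and Cdsn rose in WT from levels below those of the p53-null line, while Gstt1, Steap4, Galnt15, Cxcl15, Tspan8 and Gsta1 were near 0 in the line that did not respond.

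Of the genes with a 2-fold difference that moved the same way in both lines, almost all moved further in WT. In this class 223 genes rose (1.95%) and 335 fell (2.92%) more in WT. Against these, 1 rose (0.00873%) and 9 fell (0.0785%) more in the p53-null line. Trib3, a pseudokinase gene that ATF4 induces, rose from 4.63, 4.11 and 5.34 to 107, 112 and 111 RPKM in WT and from 45.0, 45.7 and 44.5 to 95.4, 94.7 and 95.8 in the p53-null line. The groups without glutamine ended within a small range, and the large gap was in complete medium (difference 3.23 ± 0.08, adjusted p = 5.8e-13). In Cth, which makes cysteine, the gap was at the end instead, from 9.50 ± 0.185 to 107 ± 0.805 RPKM in WT and from 3.42 ± 0.0419 to 4.64 ± 0.439 in the p53-null line. Apobr, an apolipoprotein receptor gene, went from 0.278 ± 0.0356 to 14.0 ± 0.0315 and from 3.33 ± 0.0812 to 5.26 ± 0.0534.

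Of the genes that fell more in WT, Col1a1, the main collagen chain, went from 241, 238 and 242 to 10.6, 10.9 and 11.4 RPKM in WT and from 165, 170.3 and 170.1 to 101, 105 and 103 in the p53-null line (difference -3.63 ± 0.03, adjusted p = 3.8e-16). Mgp and Prelp, which encode small matrix proteins, were largely WT transcripts, at 61.1 ± 3.85 and 27.2 ± 0.556 RPKM in WT complete medium and 1.40 ± 0.384 and 1.0 ± 0.0711 in p53-null complete medium, and their ratio of falls depends on the scale. Plcxd2 was the gene that rose more in the p53-null line, from 1.29 ± 0.0858 to 8.91 ± 0.260 RPKM against 0.458 ± 0.00568 to 1.61 ± 0.0208 in WT. Anxa8, a membrane-binding annexin gene, fell from 63.0 ± 0.849 to 5.62 ± 0.424 RPKM in the p53-null line and from 5.50 ± 0.189 to 1.18 ± 0.0435 in WT. Ptn, the growth factor pleiotrophin, fell from 38.6 ± 0.346 to 2.54 ± 0.165 and from 2.70 ± 0.0418 to 0.0782 ± 0.0201 RPKM. Its difference was 1.71 ± 0.05 (adjusted p = 2.3e-12), and -0.10 with a pseudocount of 0.1 (adjusted p = 0.36), so no order of the 2 falls is read from it.

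By pathway, the ATF4 and CHOP targets stood out for rising further in WT. Of 30 tested members, 21 (70.0%, against 15.6% of all tested genes) had a 2-fold difference, all with the larger rise in WT, 5 of them in WT alone and 16 in both lines. The median response of the list was 2.13 in WT and 0.48 in the p53-null line. In complete medium 23 of the 30 were higher in the p53-null line and 7 lower (called in 48.4% and 42.5% of all tested genes), and without glutamine 2 were higher and 28 lower (called in 51.4% and 40.0%). Slc7a11, the cystine transporter, went from 3.83 to 38.0 RPKM in WT and from 2.93 to 6.57 in the p53-null line. Pycr1, which makes proline, went from 6.26 ± 0.229 to 38.0 ± 0.595 and from 9.23 ± 0.295 to 11.3 ± 0.351. Ppp1r15a, whose product reverses the phosphorylation of eIF2α, went from 4.92 to 92.5 and from 17.5 to 71.3. The aminoacyl-tRNA synthetases, which charge tRNAs, had a 2-fold difference in 10 of 20, of which 9 were higher and Qars, the glutamine enzyme, lower. Qars was 42.3 and 21.8 RPKM in WT and 37.6 and 40.1 in the p53-null line, while Wars was 11.5 and 67.6 against 40.5 and 53.2. Ribosome biogenesis genes were called higher in 25 of 25, against 38.4% of all tested genes, with 15 higher at 2-fold, against 5.58%, among them Rrp12 (2.68 and 20.0 RPKM in WT, 11.4 and 15.4 in the p53-null line) and Ncl (89.7 and 217, 132 and 118). These genes, too, were mostly higher in the p53-null line with glutamine, 23 of 25, and lower without it, 18 of 25.

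ATF4 binds an element whose core reads TGATGCAA. The promoters of 3 genes are shown because the same core stands in genes that rose in WT alone by the limits of size above and in one that rose in both lines. Each is the 200 bases before the RefSeq transcription start (GRCm38.p6), 5′ to 3′ on the strand of the gene, with the core in capitals. It begins 103 bases before the start in Pycr1 (chr11:120643749-120643948, minus strand) and 17 before it in Avil (chr10:127000509-127000708, plus strand), and in Chac1 (chr2:119351042-119351241, plus strand), a glutathione-degrading enzyme gene that rose in both lines (from 5.78 to 47.0 RPKM in WT and from 23.0 to 53.4 in the p53-null line), it stands 193 bases before it on the other strand.
Pycr1: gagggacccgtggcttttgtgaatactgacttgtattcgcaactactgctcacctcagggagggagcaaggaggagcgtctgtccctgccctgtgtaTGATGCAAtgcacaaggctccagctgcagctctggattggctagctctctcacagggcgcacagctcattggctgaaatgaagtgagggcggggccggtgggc
Avil: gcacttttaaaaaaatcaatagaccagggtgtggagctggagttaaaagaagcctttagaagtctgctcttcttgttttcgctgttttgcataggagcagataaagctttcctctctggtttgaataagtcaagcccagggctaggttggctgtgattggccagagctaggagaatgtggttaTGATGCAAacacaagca
Chac1: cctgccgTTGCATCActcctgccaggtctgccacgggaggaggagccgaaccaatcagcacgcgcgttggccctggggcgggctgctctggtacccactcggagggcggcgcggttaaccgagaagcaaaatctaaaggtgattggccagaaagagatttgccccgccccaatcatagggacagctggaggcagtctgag
Among 11289 promoter windows of 300 bases (250 before to 50 after a start) of 8849 tested genes, TGATGCAA was present on either strand in 0.593%. It was in 6 of 231 windows (2.60%) of genes that rose in WT alone, 11 of 204 (5.39%) of genes that rose further in WT and 6 of 577 (1.04%) of genes that fell in WT alone. None of the 84 windows of the opposite classes held it, too few windows to differ from 0.593%. CACGTG, the E-box that MYC and MAX bind, was in 10.2% of all windows, 19.5% of those of genes rising in WT alone and 17.6% of those rising further in WT. It was also in 3 of 14 windows (21.4%) of genes that rose in the p53-null line alone. In the opposite classes it was in 16.7% (WT up) and 13.3% (WT down) of windows. The p53 half-site was in 6.63% of all windows and in 3.46% of those of genes rising in WT alone, 7.35% of those rising further in WT and 2 of 24 (8.33%) of those rising in WT and falling in the p53-null line. TGANTCA, bound by AP-1, was in 4.98% of all windows. It was in 7 of 38 windows (18.4%) of genes that fell in the p53-null line alone. Of genes that rose in it alone, 2 of 14 windows (14.3%) held it. It was in 7 of 60 windows (11.7%) of genes that fell in WT and rose in the p53-null line, and in 2 of 24 (8.33%) of the reverse class. GGAATG, bound by TEAD, was in 11.9% of all windows. It was in 12 of 60 windows (20.0%) of genes that fell in WT and rose in the p53-null line, and in 2 of 24 (8.33%) of the reverse class. A gene with several starts has several windows, so matches of the same gene can count more than once. This was so for Krt13 and Sgms2 with AP-1 and for Rras with TEAD. No difference between shares was tested. A match is a description of these letters in these windows and does not show binding.

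Genes of cholesterol synthesis fell further in WT. Of 24 tested members 19 (79.2%) had a 2-fold difference, against 15.6% of all tested genes. All 19 were lower, against 9.98% of all tested genes, 8 in WT alone and 11 in both lines. Mvd, a mevalonate pathway enzyme gene, was 46.3, 47.5 and 48.0 RPKM in WT complete and 5.73, 5.68 and 6.46 in WT glutamine-free libraries, and 5.44, 5.28 and 5.12 against 4.92, 5.52 and 4.78 in the p53-null line. The p53-null libraries were at the level of WT without glutamine in either medium (difference -2.75 ± 0.07, adjusted p = 8.7e-13). In complete medium 23 of the 24 genes were lower in the p53-null line (called in 42.5% of all tested genes), by a median of -1.85. Without glutamine 17 were lower and 7 higher (called in 40.0% and 51.4%), with a median of -0.32. Fdps was 207 and 25.2 RPKM in WT and 30.9 and 21.5 in the p53-null line, and Cyp51 63.8 and 15.6 against 23.6 and 22.6. The SREBP-driven fatty acid synthesis genes were less uniform, with 3 of 13 at 2-fold, all lower: Fads2, Elovl6 and Scd1.

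Interferon response genes had a 2-fold difference in 16 of 21 (76.2%, against 15.6% of all tested genes). All 16 were lower, against 9.98% of all tested genes, and 9 of these fell in WT alone, against 5.01%. Many were hardly transcribed in the p53-null line: Ifit1, an antiviral effector, was 8.95, 8.86 and 9.50 RPKM in WT complete and 0.158, 0.271 and 0.215 in WT glutamine-free libraries, and at most 0.387 in any p53-null library. Its promoter is shown as an example of the interferon-stimulated response element, searched as GAAA, any 2 bases and GAAA, of which 2 copies stand on the other strand (in capitals as TTTCACTTTC and TTTCAGTTTC), beginning 104 and 85 bases before the start (chr19:34640689-34640888, plus strand, GRCm38.p6, RefSeq).
Ifit1: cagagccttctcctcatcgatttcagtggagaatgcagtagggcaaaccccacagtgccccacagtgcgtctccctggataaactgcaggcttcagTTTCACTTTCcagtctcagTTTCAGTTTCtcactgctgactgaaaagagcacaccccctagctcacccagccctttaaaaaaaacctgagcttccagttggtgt
That motif was in 2.83% of all windows, in 4.68% of those of genes that fell in WT alone and in 4.65% of those that fell further in WT, but also in 5.88% of those that rose further in WT. Ddx58, the RNA sensor RIG-I, was expressed in both lines, at 19.8 and 6.15 RPKM in WT and 2.39 and 2.87 in the p53-null line. Chemokines and cytokines had a 2-fold difference in 10 of 15 (66.7%, against the same 15.6%), of which 9 were lower and Vegfa, a vessel growth factor, higher. Cxcl5 was 198 and 25.1 RPKM in WT and Il6 13.8 and 1.16, both under 0.1 RPKM in the p53-null means. Vegfa went from 22.8 to 115 RPKM in WT and from 73.6 to 90.5 in the p53-null line.

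Of 16 tested collagens 14 were called lower and 1 higher (46.4% and 38.4% of all tested genes). At 2-fold 11 (68.8%) were lower, as were 14 of 25 other matrix genes (56.0%), against 9.98% of all tested genes. In collagens the p53-null line was the lower in 13 of 16 with glutamine (called in 42.5% of all tested genes, median -1.27). Without it, 9 were higher and 6 lower (called in 51.4% and 40.0%, median 0.40). Mitosis genes were called lower in 30 of 30, against 46.4% of all tested genes, with 18 lower at 2-fold, against 9.98%. Cenpf, a kinetochore gene, was 22.5 and 2.62 RPKM in WT and 14.4 and 9.67 in the p53-null line. DNA replication genes, by contrast, had a 2-fold difference in 2 of 38 (5.26%): Gins2 lower and Ccne2 higher. Ccne2, a cyclin of the G1 to S step, went from 10.5 to 28.7 RPKM in WT and was 10.5 and 9.86 in the p53-null line. Gins2 has 67.3% of its exon length under a gene on the other strand.

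The p53 targets of arrest, repair and feedback were split, with 5 of 26 higher and 5 lower at 2-fold (38.5% together, against 15.6% of all tested genes). Cdkn1a, the cell cycle inhibitor p21, had a difference of 1.71 ± 0.12 (adjusted p = 1.6e-08), and Gadd45a went from 17.8 to 252 RPKM in WT and from 18.4 to 78.7 in the p53-null line. Sesn1 (17.2 and 2.76 RPKM in WT, 4.04 and 2.63 in the p53-null line), Dcxr and Psrc1 were among the lower ones. Tigar and Aen rose in both lines. Of the 12 tested p53 targets of cell death, 3 (25.0%, not far above that share) had a 2-fold difference. All 3 were higher: Bax in opposite directions, Trp53inp1 in WT alone (3.32 to 8.60 RPKM, against 4.09 and 3.53) and Aen in both lines. Immediate early genes had 11 of 25 (44.0%) at 2-fold, 3 higher and 8 lower. Their list held 3 genes in opposite directions (Egr1, Dusp6 and Nr4a1) and 2 that rose in the p53-null line alone (Maff and Dusp5). NRF2 targets were called higher in 16 and lower in 6 of 23, against 38.4% and 46.4% of all tested genes, and 8 (34.8%) had a 2-fold difference, 7 higher and 1 lower. Their median response was 0.12 in WT and -0.29 in the p53-null line. Like DNA replication, 3 more lists lay below the 15.6% of all tested genes at 2-fold: the tricarboxylic acid cycle (1 of 23), endoplasmic reticulum chaperones (1 of 20) and lysosome and autophagy (4 of 28, 14.3%). Glycolysis (4 of 18, 22.2%) and glutamine and glutamate metabolism (6 of 24, 25.0%) were not far above it. In the last, Glul, glutamine synthetase, was 18.4 and 10.5 RPKM in WT and 1.22 and 2.13 in the p53-null line (difference -1.24 ± 0.05), while Gpt2 and Asns rose further in WT. Hypoxia response genes had 6 of 18 (33.3%, against 15.6% of all tested genes) at 2-fold, with 2 higher in WT alone (Vegfa and Ndrg1) and 4 lower. The 22 tested TGF-beta, BMP and Id genes had 8 (36.4%), of which Id1 fell in the p53-null line alone and Grem1, a secreted inhibitor of bone morphogenetic proteins, rose in WT alone. The contractile genes of myofibroblasts had 4 of 9 (44.4%), led by Cnn2 (78.2 and 5.35 RPKM in WT, 111 and 38.0 in the p53-null line). The cationic amino acid transporters had 2 of 4, Slc7a3 and Slc7a1.

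**Figure D5:**
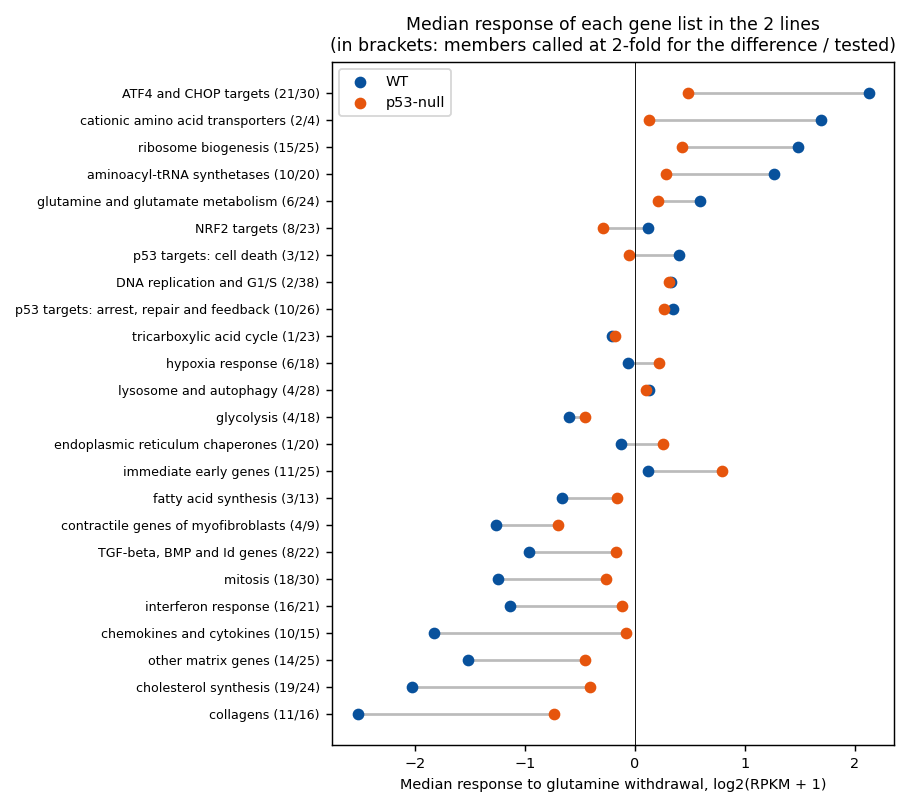
Median response to glutamine withdrawal, in log2(RPKM + 1), of the tested members of each gene list in the WT and p53-null lines; brackets give members with a 2-fold difference of the responses over members tested, against 15.6% of all tested genes. The lists of ATF4 and CHOP targets and of ribosome biogenesis lie to the right and those of collagens and cholesterol synthesis to the left, with the WT point the farther from 0.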

How the data were processed

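RNA of 12 samples was made into TruSeq V2 libraries, a kit that does not mark strand, from 0.5 ug of total RNA each, per the labels' protocols. The submitters' processing notes name CASAVA 1.8, HISAT2 2.0.4, Partek (no version) and mm10, without an order. The authors deposited 1 table of RPKM per gene and sample. How shared or antisense reads were treated, and by which annotation, was not given in the sources used. An RPKM value keeps no read count. The depth was estimated from 665 to 785 low values per library, under 0.5 RPKM and from protein-coding genes with 1 annotated transcript. Only 51.7 to 56.6% of these were whole reads within 0.05 at the estimated depth, so no count test was run. The members, classes and gene lists were chosen with earlier results of these data known.

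Values were transformed as log2(RPKM + 1), a scale that understates changes of genes near or under 1 RPKM. A limma fit (limma 3.58.1, R 4.3.3) on 4 group means with a mean-variance trend gave the responses, their difference and the line differences. Calls used an adjusted p under 0.05, and 2-fold a log2 difference of at least 1. Classes took limits of 0.5 (opposite directions), 1 and 0.3 (1 line alone) and 0.3 (same direction). Named genes were Trp53, Slc7a3, the 6 largest differences in each split of the opposite and 1-line classes and the 3 largest in each same-direction split. They had at least 5 RPKM in the highest group and no overlap of media in a line that responded, leaving out predicted genes, small RNAs, pseudogenes and names turned into dates. One gene that met the rule is not reported here. Up to 3 members per list were added, and list members beyond these are given as examples chosen after their values were seen. Of 592 distinct symbols in 31 lists, 583 were found (1 by a synonym) and 512 tested. Coordinates and overlaps on the other strand come from GENCODE M21 (GRCm38, the assembly of mm10), which holds 18835 of the entry names, and 26 entries had names turned into dates. The p53 half-site was searched by its standard degenerate pattern, and all motifs on both strands. On simulated data of 11461 genes for the difference of the responses, recovery was 78.0% of 50 genes at 1.2-fold, 98.0% at 1.5-fold and 100% at both 2-fold and 3-fold, with 11 calls among 11261 unchanged genes. The changed genes were drawn only from those with a higher mean level, so recovery of genes near 1 RPKM was not measured. Whether replicate numbers pair the samples was not settled. Of 6 same-numbered pairs 2 correlated above 0.1, both in WT (r = -0.07 to 0.18 over the 6), against -0.15 to 0.11 for pairs with other numbers. The samples were fitted as unpaired.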

Additional observations from a re-analysis of the deposited data

Results flagged for a closer look

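The 2 lines differed in their response to glutamine withdrawal, by a direct test of the difference, in 1783 genes at 2-fold. The genes named here for opposite responses were among them. In log2(RPKM + 1), WT response minus p53-null response, the differences were 3.10 for Itgb7, 2.56 for Ugt1a6a, 2.41 for Tmem150a, 2.23 for Lgals3 and 2.02 for Kitl. They were -3.52 for Has2, -3.12 for Txnip, -2.81 for Cyr61, -2.55 for Egr1, -2.54 for Rras and -2.36 for Tmem171. Slc7a3 had a difference of 3.09. For the opposite genes, the naming rule itself asked that the libraries of the media not overlap in either line, so their separation is no check. Slc7a3, named without that rule, also showed no overlap in either line. The same held for 8808 of the 11461 tested genes.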

How the results depend on the processing

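Of 21 alternative settings, those that changed a count by over 1.5 times are given here. With a pseudocount of 0.1 the opposite classes held 80 (WT up) and 121 (WT down) genes. The same-direction classes then held 344 rising and 557 falling more in WT, and 6 and 21 more in the p53-null line. With 0.5, the last 2 were 2 and 17. Median centring gave 61, 40 and 14 (opposite WT up, opposite WT down, falling more in p53-null) and quantile normalization 41 opposite WT down and 2 rising more in p53-null. A filter at 5 RPKM left 7 rising and 25 falling genes in the p53-null line alone, since fewer genes were tested. Stricter size limits left 2 and 3 opposite genes, and limma's treat against 1.5-fold called 1276 higher and 1949 lower. Of the named genes, Ptn reversed (-0.10) and Tgfbi lost its call (-0.25, adjusted p = 0.053) with a pseudocount of 0.1. The cause was not tested.

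Leaving out each library in turn gave 4313 to 4408 higher and 5236 to 5294 lower calls, and 626 to 644 and 1129 to 1158 at 2-fold. The opposite classes ranged 35 to 40 and 63 to 67, WT alone 236 to 243 and 564 to 588, p53-null alone 11 to 14 and 41 to 44. The same-direction classes ranged 223 to 228 and 330 to 339 for WT, 1 to 1 and 9 to 10 for p53-null. With a replicate block, though it is not settled that the numbers pair the samples, 4398 higher and 5313 lower genes were called, 639 and 1143 at 2-fold. The sign of the difference was the other way in untransformed RPKM for 785 tested genes (6.85%). Among them were 3 of the 223 genes that rose further in WT and 13 of the 335 that fell further. None was in the opposite classes, where the class rule itself sets the sign, or in the 1-line classes, where 1 response is small by rule. That absence is therefore no check of these classes.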
